A study of Drosophila melanogaster with 4 samples.

Results

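The stretches described here are the mid-size gaps between neighbouring ORC2-bound regions, 50 kb or longer and shorter than 100 kb, on the main chromosome arms of Drosophila melanogaster (2L, 2R, 3L, 3R, 4 and X). They were taken from the list of ORC2 regions that the authors had combined from 2 libraries, as every stretch from the base after one region to the base before the next one on the same arm. Of 6497 gaps between neighbouring combined regions, 359 were of this length. They were chosen by the positions of combined regions, so their number, length and lack of a combined region describe the choice and were not tested.

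ORC2 is a subunit of the origin recognition complex, which binds DNA before replication begins and loads the helicase from which replication forks can start. In a polyploid tissue such as the larval salivary gland, cells copy their DNA repeatedly without dividing and form giant polytene chromosomes. Certain stretches of these chromosomes are copied late or incompletely, and the product of SuUR (Suppressor of Underreplication) is required for that incomplete copying. A stretch without origins is copied by forks that enter from its borders, so both the interior and the borders of the gaps are described.

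Both libraries were ORC2 chromatin immunoprecipitations from salivary glands of wandering third-instar larvae, one from each of 2 chromatin extractions (replicates 1 and 2). They are labelled as the SuUR mutant strain of the Orr-Weaver laboratory, an outcrossed line listed with a GFP transposon tag. Entries labelled wild type (Oregon-R), one ORC2 immunoprecipitation and one input DNA, were not analysed here, so genotypes were not compared. The immunoprecipitation is assigned to extraction 1 and the input DNA to extraction 2. Whether either served as the control in peak calling is not stated, and its bearing on differences between the replicates was not tested. The labels do not say whether the animals differed between extractions, and with 2 libraries of 1 group no test between samples could be made. Sequencing depth cannot be read from these lists, which hold positions and scores. All intervals below are 95% intervals of counting error only, exact Poisson for densities and exact binomial for shares and for ratios of densities, and they treat peaks as independent.

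The 359 mid-size gaps covered 24.5 Mb, or 20.4% of the 120 Mb of the main arms. Their median length was 64353 bp, with quartiles of 56440 and 78308 bp. Gaps of 100 kb or more numbered 224 and covered 37.9 Mb, so that the gaps of at least 50 kb together took up 51.9% of the main arms. The mid-size gaps thus outnumbered the longer ones and covered less sequence. At the lower limit the shortest members had 50312, 50318 and 50359 bp, and the longest gaps just outside had 49910, 49737 and 49609 bp. At the upper limit the longest members had 99777, 99691 and 99602 bp, and the shortest gaps just outside had 100622, 101006 and 101213 bp.

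Mid-size gaps were present on every main arm, and their share of the arm was smallest on X and largest on chromosome 4. Among the large arms the share rose from 15.7% of X (52 gaps) through 18.1% of 3L (65 gaps), 21.4% of 2L (71 gaps) and 22.4% of 3R (94 gaps) to 22.5% of 2R (69 gaps). On the small chromosome 4, 8 gaps took up 45.4% of the length, and this chromosome had no longer gap. The number per Mb was 2.32 on X (1.73 to 3.04), 2.65 for 3L (2.05 to 3.38), 3.09 for 2L (2.41 to 3.90), 3.26 for 2R (2.54 to 4.13) and 3.37 for 3R (2.72 to 4.12). The intervals of neighbours in this order overlapped, and the density on 3R was 1.45 times that on X (1.02 to 2.08), although these arms were picked as the extremes. Chromosome 4 had 6.15 per Mb (2.66 to 12.1). Longer gaps took up 36.9% of X and 35.2% of 2L, and 25.5% of 2R, so X had the lowest share in mid-size gaps and the highest in longer ones. Each of the 5 large arms was cut into 5 equal parts from the centromere outwards. Over these arms together, mid-size gaps took up between 18.6% and 22.4% of each part, and the outermost part held the most (80 gaps). By arm the share ran from 11.6% (X, next to the centromere) to 29.0% (2R, outermost). On no single large arm did the outermost part alone hold the most gaps.

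**Figure D1:**
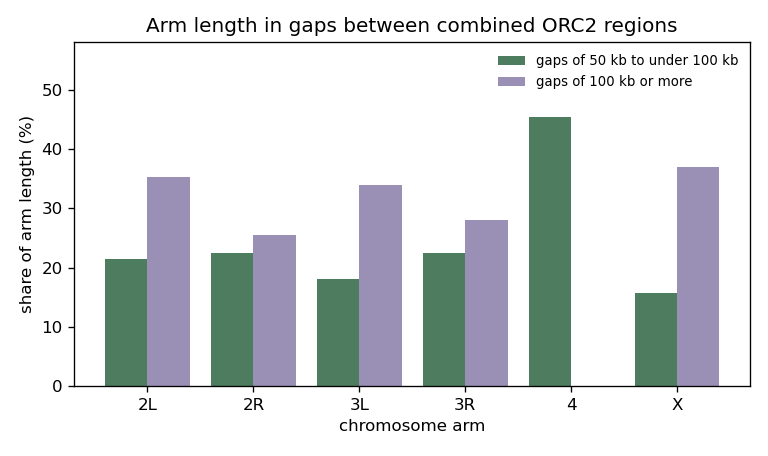
Percentage of each arm's length that lay in gaps of 50 kb to under 100 kb (green) and of 100 kb or more (purple) between combined ORC2 regions. Mid-size gaps took up 45.4% of chromosome 4, which had no longer gap, and 15.7% of X, where longer gaps took up 36.9%.

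The gaps were free of combined regions but not of peaks. A combined region joins overlapping peaks of both libraries, so a peak inside a gap is one called in a single library. The mid-size gaps held 116 such peaks of replicate 1 and 436 of replicate 2, which was 10.7% and 12.1% of all single-library peaks of these libraries on the main arms. This gave 4.74 peaks per Mb in replicate 1 (3.91 to 5.68) and 17.8 per Mb in replicate 2 (16.2 to 19.6). Replicate 2 thus had 3.76 times as many peaks in the mid-size gaps as replicate 1 (3.06 to 4.65). That ratio was 2.87 in gaps under 10 kb (2.58 to 3.19) and 4.25 in gaps of 100 kb or more (3.33 to 5.48), and the interval of the mid-size gaps overlapped both.

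Most mid-size gaps held no or few peaks. Replicate 1 had none in 266 gaps (74.1%, 69.2 to 78.6), 1 peak in 70 gaps and 2 peaks in 23, and never more. Replicate 2 had none in 149 gaps (41.5%, 36.4 to 46.8), 1 peak in 96, 2 peaks in 57, 3 peaks in 33 and 4 or more in 24. No peak of either library was called in 125 gaps (34.8%, 29.9 to 39.996). A further 141 held peaks of replicate 2 alone, 24 of replicate 1 alone, and 69 held peaks of both.

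**Figure D2:**
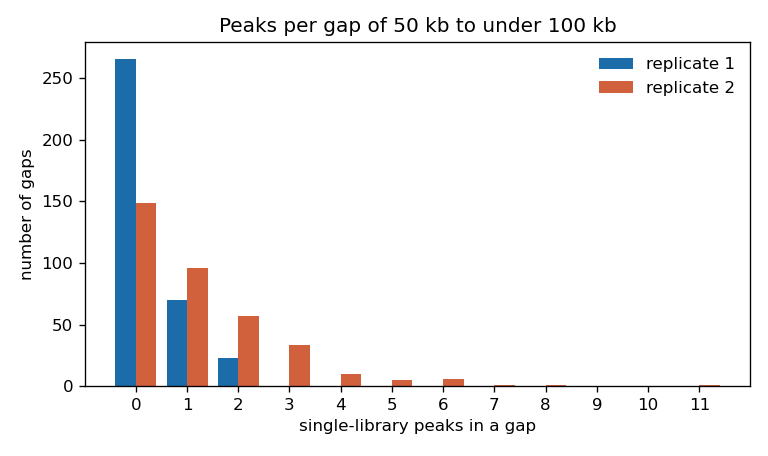
Number of gaps of 50 kb to under 100 kb by the number of single-library ORC2 peaks inside, for replicate 1 (blue) and replicate 2 (orange). In replicate 1, 266 of the 359 gaps held no peak and none held more than 2, whereas 1 gap held 11 peaks of replicate 2.

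A replicate 2 peak was present in a larger share of the gaps that held a replicate 1 peak. Where replicate 1 had a peak, 74.2% of 93 gaps also held a peak of replicate 2 (64.1 to 82.7), against 53.0% of the 266 gaps without one (46.8 to 59.1). The gaps with a replicate 1 peak were slightly longer, with a median of 65804 bp against 63801 bp. Of the 116 replicate 1 peaks in these gaps, 39 lay within 1 kb of a replicate 2 peak that they did not overlap (33.6%, 25.1 to 43.0). Of the 436 replicate 2 peaks, 42 had a replicate 1 peak within 1 kb (9.63%, 7.03 to 12.8). The corresponding shares in gaps of 100 kb or more were 29.6% (19.99 to 40.8) and 7.85% (5.24 to 11.2), and their intervals overlapped those of the mid-size gaps. In those longer gaps a replicate 2 peak was present in 90.2% of the 51 gaps with a replicate 1 peak (78.6 to 96.7). Of the 173 longer gaps without one, 61.8% held a replicate 2 peak (54.2 to 69.1), so this pattern was not particular to mid-size gaps.

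Single-library peaks were denser in the mid-size gaps than in longer ones and sparser than in shorter ones. Gaps of 100 kb or more held 2.14 peaks per Mb of replicate 1 (1.70 to 2.66) and 9.08 of replicate 2 (8.14 to 10.1). The density in mid-size gaps was 2.22 times as high in replicate 1 (1.65 to 2.98) and 1.96 times as high in replicate 2 (1.70 to 2.27). Against gaps of 20 kb to under 50 kb, which held 7.75 and 29.9 peaks per Mb, the ratios were 0.611 (0.482 to 0.772) and 0.595 (0.528 to 0.671). The order of the classes was the same in both libraries, and no interval of a class overlapped that of its neighbour. The classes were formed from the positions of paired peaks of the same libraries, so this fall with gap length is not independent of how the gaps were chosen. The share of gaps without any peak was 34.8% in the mid-size class and 29.5% among the longer gaps (23.6 to 35.9), and these intervals overlapped.

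**Figure D3:**
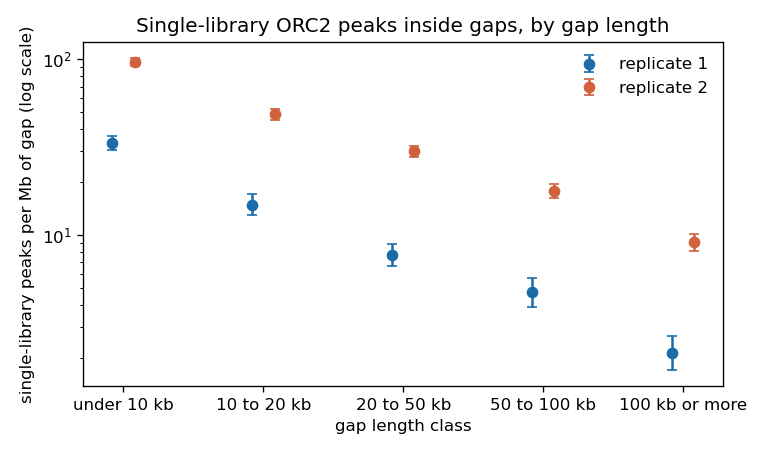
Single-library ORC2 peaks per Mb of gap (log scale) by gap length class, for replicate 1 (blue) and replicate 2 (orange), with exact 95% Poisson intervals as bars. The mid-size class stood at 4.74 and 17.8 peaks per Mb, between 7.75 and 29.9 in gaps of 20 to 50 kb and 2.14 and 9.08 in gaps of 100 kb or more.

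The density did not fall evenly with length within the mid-size class. In replicate 2 it was 20.3 per Mb in gaps of 50 to 60 kb (17.2 to 23.7), 17.1 at 60 to 70 kb (13.8 to 21.0), 24.9 at 70 to 80 kb (20.5 to 30.0), 14.6 at 80 to 90 kb (11.01 to 18.9) and 7.09 at 90 to 100 kb (4.49 to 10.6). The interval of the 34 gaps of 90 to 100 kb included the 9.08 per Mb of gaps of 100 kb or more, while that of the 60 gaps of 70 to 80 kb lay above those of both longer steps. The step of 70 to 80 kb was singled out as the highest of 5. Of its 112 replicate 2 peaks, 11 lay in a single gap on 3R and 8 in a single gap on 2R. Peaks clustered in this way are not independent, as the intervals assume. In replicate 1 the 5 steps gave 5.26, 4.71, 5.57, 4.43 and 2.77 per Mb, and their intervals all overlapped. Gaps without any peak made up 18.3% of the 60 gaps of 70 to 80 kb (9.52 to 30.4) and between 35.5% and 44.1% in the other steps.

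Peaks inside the gaps gathered near the borders. The outer 10 kb on each side made up 29.3% of the length of the mid-size gaps and held 62.1% of their replicate 1 peaks and 53.4% of their replicate 2 peaks. The density there was 3.94 times that of the interior in replicate 1 (2.67 to 5.88) and 2.77 times in replicate 2 (2.28 to 3.36). In gaps of 100 kb or more these ratios were higher, at 12.03 (7.53 to 19.48) and 5.06 (4.05 to 6.30). Neither interval overlapped that of the mid-size gaps in the same library. The outer 10 kb made up only 11.8% of the length of those longer gaps. Density ratios of whole mid-size to whole longer gaps therefore combine border and interior in different proportions. Within 5 kb of a border, mid-size gaps held 12.5 peaks per Mb of replicate 1 (9.14 to 16.8) and 47.9 of replicate 2 (41.0 to 55.6). From 5 to 10 kb the densities were 7.52 and 17.0 per Mb, and from 10 to 15 kb 1.95 and 11.1 per Mb. Farther in, replicate 2 stayed between 9.63 and 15.1 per Mb up to 40 kb from the border, with overlapping intervals and no further fall.

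Near a border, mid-size and longer gaps did not differ beyond counting error. Farther in they differed in the zone from 25 to 50 kb taken as a whole. In the outer 10 kb the ratio of mid-size to longer gaps was 0.898 in replicate 1 (0.618 to 1.32) and 1.05 in replicate 2 (0.844 to 1.30), so that neither library showed a difference beyond counting error. From 10 to 25 kb the ratios were 1.61 (0.805 to 3.45) and 1.28 (0.942 to 1.75), and both intervals included equality. From 25 to 50 kb the mid-size gaps were denser, with 1.99 peaks per Mb against 0.625 in replicate 1 (ratio 3.18, 1.18 to 9.42) and 10.7 against 4.73 in replicate 2 (ratio 2.26, 1.56 to 3.30). The replicate 1 values in this zone rest on 13 and 7 peaks. The zone is not matched for distance. Mid-size gaps had 2.91 Mb from 25 to 30 kb and 1.08 Mb from 35 to 40 kb, against 2.24 Mb of longer gaps in each step. In steps of 5 kb from 25 to 40 kb, the intervals of the classes separated only in replicate 2 from 25 to 30 kb (9.63 against 2.68 per Mb). A point 25 to 50 kb from the nearer border lies closer to the other border in a mid-size gap than in a longer one.

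**Figure D4:**
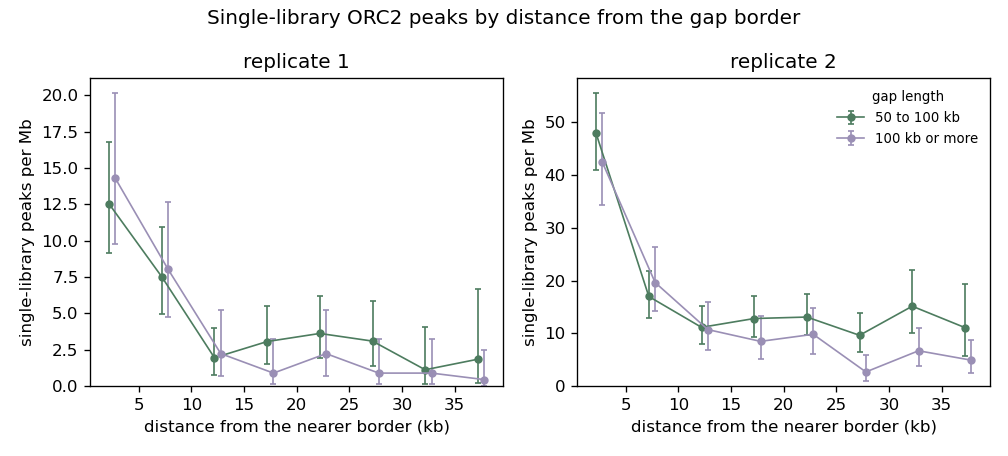
Single-library ORC2 peaks per Mb by distance of the peak midpoint from the nearer gap border (kb, steps of 5 kb), for gaps of 50 to 100 kb (green) and of 100 kb or more (purple), with replicate 1 on the left, replicate 2 on the right and exact 95% Poisson intervals as bars. Beside the border the gap classes have overlapping intervals, at 47.9 and 42.4 per Mb in replicate 2. Beyond 25 kb the mid-size values lie higher, but the intervals separate only from 25 to 30 kb in replicate 2.

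Peaks inside the mid-size gaps were narrow, as single-library peaks were in every gap class. The median peak width of 56.5 bp (replicate 1) and 85.0 bp (replicate 2) compared with 296 and 377 bp for the remaining peaks of each library on these arms, nearly all of which lie in combined regions. Peaks narrower than the 36 nt read length made up 35.3% of the replicate 1 peaks and 25.9% of the replicate 2 peaks in mid-size gaps, against 3.92% and 0.921% of the remaining peaks. In gaps of 100 kb or more the median widths were 59.0 and 91.0 bp, and 38.3% and 29.4% of the peaks were narrower than a read. The scores of the peak caller, which have no unit and are the authors' values, were not low by comparison. The median score was 1.73 in replicate 1 (quartiles 1.46 and 2.00), against 1.76 for the remaining peaks, and 2.31 in replicate 2 (1.86 and 3.05), against 2.33. Single-library peaks in gaps under 10 kb had median scores of 1.51 and 2.07, so those in mid-size gaps scored higher than those between close neighbours. In gaps of 100 kb or more the medians were 1.65 and 2.36.

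Counting these peaks shortened the free stretches of many mid-size gaps. The longest stretch without a peak of either library had a median length of 55167 bp and made up a median of 93.6% of its gap. In 243 gaps it was still 50 kb or longer (67.7%, 62.6 to 72.5), and these stretches covered 16.0 Mb. The smallest longest stretch had 21617 bp. With peaks of replicate 1 alone, 327 gaps kept a stretch of 50 kb, and with those of replicate 2 alone, 261. These stretches covered 90.2% of the mid-size gap length in replicate 1 and 70.2% in replicate 2. Gaps of at least 50 kb in the list of one library covered the same shares. Each combined region holds peaks of both libraries, so that count restates the stretches and is no separate result.

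The density of single-library peaks in mid-size gaps was lowest on 2L and highest on 2R among the large arms in both libraries. In replicate 2 it ranged from 15.7 per Mb on 2L (12.4 to 19.6) to 19.3 on 2R (15.6 to 23.7), a ratio of 1.23 (0.899 to 1.69). In replicate 1 it ranged from 2.85 per Mb on 2L (1.56 to 4.79) to 6.09 on 2R (4.08 to 8.74), a ratio of 2.13 (1.09 to 4.37). These arms were picked as the extremes, which their intervals do not take into account. On 2R, the part next to the centromere (of 5 equal parts) had 0.850 of 4.77 Mb of mid-size gap. It held 32 of the 92 replicate 2 peaks and 4 of the 29 replicate 1 peaks of that arm. The same part of 2L had 0.778 of 4.91 Mb and held 16 of 77 and 2 of 14. The other large arms did not share 1 direction. This part had 0.847 of 4.44 Mb on 3L and held 7 of 84 and 1 of 25. On 3R it had 1.47 of 6.25 Mb and held 24 of 109 and 4 of 24. On X it had 0.519 of 3.53 Mb and held 12 of 61 and 2 of 17. On chromosome 4, none of the 8 gaps was free of peaks, and the densities of 11.9 (4.77 to 24.4) and 22.0 per Mb (11.7 to 37.6) rest on 7 and 13 peaks. The replicate 1 interval there overlapped that of each large arm, that of 2L only at its upper end. The share of gaps without any peak was between 30.4% on 2R and 39.4% on 3R. Over the 5 parts of the large arms, from the centromere outwards, the density was 2.91, 3.84, 5.80, 3.77 and 6.20 per Mb in replicate 1. In replicate 2 it was 20.4, 13.1, 20.6, 16.7 and 17.7 per Mb, so neither library showed a steady course along the arms.

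The mid-size gaps were bordered by 690 combined regions, of which 28 had a mid-size gap on both sides and 42 bordered a longer gap as well. These regions scored higher than regions with no gap of 50 kb or more beside them. Their median combined score was 2.23 (quartiles 1.84 and 2.77), against 2.03 (1.75 and 2.41) for the 5422 regions without such a gap. In replicate 1 the medians were 1.89 and 1.74, and in replicate 2 they were 2.52 and 2.31. Flanks of gaps of 100 kb or more had a median combined score of 2.23, and flanks of gaps of 20 to 50 kb had 2.13. The quartile ranges overlapped widely, and regions are not replicates, so no test was made.

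Higher flank scores were found on each large arm in both libraries. In replicate 1 the flank median was above that of regions without such a gap by arm as follows: 1.93 against 1.74 on 2L, 1.89 against 1.73 on 2R, 1.82 against 1.76 on 3L, 1.82 against 1.69 on 3R and 2.00 against 1.80 on X. In replicate 2 the medians were 2.52 against 2.27 on 2L, 2.68 against 2.29 on 2R, 2.44 against 2.32 on 3L, 2.33 against 2.17 on 3R and 2.71 against 2.49 on X. On chromosome 4, the 15 flanking regions had a median of 2.07 against 2.02 in replicate 1 and 2.94 against 2.97 in replicate 2, so there the libraries gave opposite directions. Both flanks reached the main arm median of 2.05 at 141 of the 359 gaps, 1 flank did so at 159 and neither at 59. The share with both flanks at the median or above was 39.3%, near the 38.8% of longer gaps and above the 34.8% of gaps of 20 to 50 kb.

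**Figure D5:**
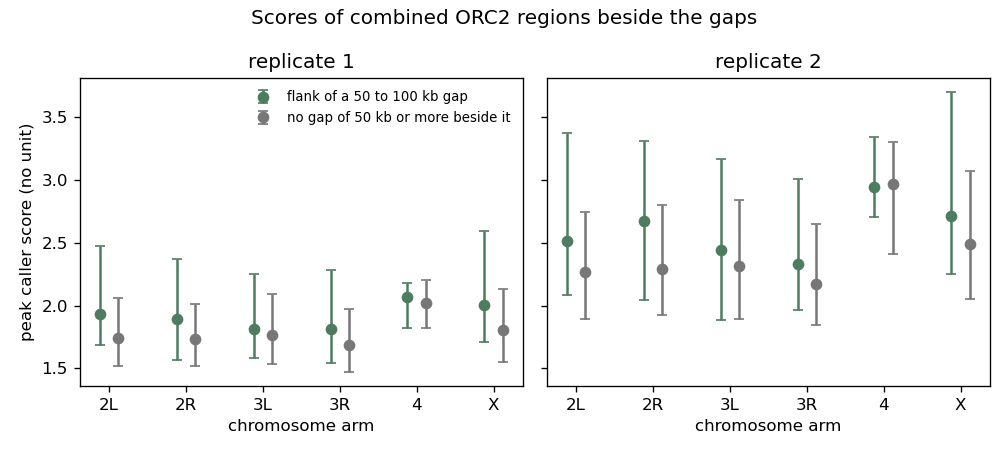
Median score of the peak caller (no unit, bars from the lower to the upper quartile) of combined regions beside a gap of 50 to 100 kb (green) and of regions with no gap of 50 kb or more beside them (grey), by arm, with replicate 1 on the left and replicate 2 on the right. The flank medians lie higher on each of the 5 large arms, and the quartile ranges overlap.

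Flanking regions were slightly narrower than regions without such a gap. They had a median width of 406 bp, which compares with 443.5 bp for regions without a gap of 50 kb or more beside them and 434 bp for flanks of longer gaps. Flanks of gaps of 20 to 50 kb had a median of 401.5 bp, so the smaller width was not particular to mid-size gaps. The 28 regions with a mid-size gap on both sides had a median width of 238.5 bp, and none reached 1 kb, as 9.71% of all mid-size flanks did. Beyond a flank, the next 50 kb held a median of 3 further combined regions (quartiles 1 and 5), against 4 (2 and 6) counted rightward from every main arm region. The median was also 3 beyond flanks of gaps of 20 to 50 kb (2 and 5) and of 100 kb or more (1 and 6). No further region lay within 50 kb of 100 of the 718 borders of mid-size gaps (13.9%), against 16.3% for longer gaps and 11.3% for gaps of 20 to 50 kb. Such a border has another gap of at least 50 kb or the arm end on its other side. The count therefore restates which flanks had such gaps on both sides. Counts made rightward from every region (9.06% with none) also look into the gaps themselves, so they are no separate background.

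Another gap of at least 50 kb lay within 10 kb of 130 of the 359 mid-size gaps (36.2%), and for 75 of these the neighbour was mid-size, for 42 it was longer, and 13 had both kinds. Stretches of at most 10 kb made up 20.9% of those between 2 successive mid-size gaps, 21.3% of those between a mid-size and a longer gap and 27.0% of those between 2 longer gaps, so mid-size gaps did not stand out. Stretches between 2 successive mid-size gaps had a median length of 57525 bp and a median of 6.5 combined regions, and 28 of 220 held a single region (12.7%). Between a mid-size and a longer gap the medians were 66068 bp and 8.0 regions, and 42 of 268 held a single region (15.7%), as did 16.9% of the stretches between 2 longer gaps.

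Linking gaps of at least 50 kb that lay within 10 kb of each other gave 81 chains with a mid-size member, with a median span of 196783 bp. The chains named here were chosen after their values were seen. The longest ran on 2R from 15557533 to 16132637 (575105 bp, FlyBase release 5.1) and joined 4 gaps, 2 of them mid-size, with 4 combined regions between them and no peak of replicate 1 and 4 of replicate 2 inside the gaps. On 3L, 4 gaps from 22282140 to 22692368 (410229 bp), 3 of them mid-size, had 1 replicate 2 peak and none of replicate 1. On 3R, a chain from 7819269 to 8167225 (347957 bp) and one from 12469675 to 12774381 (304707 bp) each had 3 mid-size gaps of 4, with no peak of replicate 1 and 6 of replicate 2.

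Few or no peaks were common among the 359 mid-size gaps, of which 125 held none (34.8%). The 5 longest mid-size gaps held at most 1 peak each. They lay on 3R from 7947202 to 8046978 (no peak of replicate 1, 1 of replicate 2), on 3R from 13847536 to 13947226 (1 and none), on 2L from 5624345 to 5723946 (none and 1), on 3L from 10218735 to 10318312 (none and 1) and on 2R from 15614866 to 15713834 (none in either). The 3R gap from 7947202 belonged to the 3R chain that begins at 7819269, and its single peak left 98116 bp free. It began beside ORC4274, a region of 195 bp with scores of 6.83 and 6.37 in replicates 1 and 2, and ended beside ORC4275 with scores of 2.43 and 3.08. The 2L gap began beside ORC343, with scores of 5.18 and 9.25, and ended beside ORC344, with 3.19 and 4.42.

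Apart from that 2R gap, the longest mid-size gaps without any peak were on 3R from 6263009 to 6361527 (98519 bp), on X from 16343419 to 16441502 (98084 bp), on 2L from 7577928 to 7675634 (97707 bp) and on 2R from 20973215 to 21070464 (97250 bp). Each had at least 1 flank above the main arm median, as 300 of the 359 mid-size gaps did at or above it (83.6%). The 2R gap at 20973215 lay between ORC2431, with scores of 3.08 and 4.51 in replicates 1 and 2, and ORC2432, with 3.24 and 5.87. The 3R gap lay between ORC4203, which scored 1.99 and 1.88, and ORC4204, which scored 3.07 and 4.40.

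The gap with the most peaks was on 3R from 11630123 to 11701253 (71131 bp), with none of replicate 1 and 11 of replicate 2. Of these 11 peaks, 5 lay between 11660352 and 11665261 near the middle of the gap, and the highest score, 5.49, belonged to a peak of 40 bp there. Another 4 lay between 11696132 and 11698930, within 5 kb of the right border, and the longest free stretch was 30229 bp. On 2R, the gap from 14576369 to 14664278 held 2 peaks of replicate 1 and 6 of replicate 2. Its replicate 1 peaks at 14586110 and 14593851 each lay within 1 kb of a replicate 2 peak, which ended at 14586011 and 14593656. The 2R gap from 632368 to 711758 held none and 8, the 3L gap from 10770060 to 10844464 held 2 and 5, and the 3R gap from 18274359 to 18342559 held 1 and 6. The last 2 were the longest of 7 gaps tied at 7 peaks, and the other 5 of these were 54067 to 62393 bp long and lay on 2R, 3L and X.

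Of the 5 gaps with the highest mean flank score, 2 held no peak and the other 3 held 1 or 2, while 125 of all 359 mid-size gaps held none (34.8%). On 2L the gap from 21345274 to 21397235 ended beside ORC1173, with scores of 10.2 and 8.74 in replicates 1 and 2, and held 1 peak of each library. On 3L the gaps from 6612500 to 6682106 and from 14420768 to 14506415 held no peak. The first of these lay between ORC2813, with 4.72 and 7.44, and ORC2814, with 4.09 and 6.29, and the second ended beside ORC3257, with 6.01 and 10.4. On 2R the gap from 18105033 to 18185352 ended beside ORC2230, with 3.97 and 9.37, and held 2 peaks of replicate 1 and none of replicate 2. The remaining one was the 2L gap at 5624345 described above.

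On chromosome 4 the 8 gaps ranged from 52056 to 97397 bp. The longest, from 231201 to 328597, held 1 peak of each library. The gaps from 718435 to 808020 and from 808340 to 887472 were separated by a single region, ORC5338, of 319 bp, with scores of 1.84 and 3.20 in replicates 1 and 2. The gap from 592730 to 679872 held 1 peak of replicate 1 and 4 of replicate 2, the most on this chromosome. Genes and base composition of the gaps were not analysed here.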

How the data were processed

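The authors called peaks with PeakSeq, which compares an immunoprecipitated with a control library, on FlyBase release 5.1, per the file headers and source fields. The deposited score of each peak or region has no stated unit or scale. Libraries were size-selected for 150 to 200 bp fragments and sequenced for 36 nt, per the labels' protocols and the series' design text. The aligner, control and thresholds were not given in the sources used here. Start and end positions are counted from base 1. The lists hold 8247 peaks (replicate 1), 10621 peaks (replicate 2) and 6587 combined regions, 6503 of them on the 6 main arms. Read counts are not part of them, so depth and its precision are unknown.

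Gaps, peaks wholly inside them, distances of peak midpoints from the nearer border and flanking regions were computed with Python 3.11.15, NumPy 2.4.6 and SciPy 1.17.1, and plotted with Matplotlib 3.10.9; the code was tested on simulated lists. Arm lengths run to the last peak in any list. A region's score per replicate is the mean over its overlapping peaks. Members, classes and comparisons were chosen with earlier results of these data known. Named gaps are the 5 longest, the 5 with the most peaks (ties by length), the 5 longest without a peak, the 3 nearest each limit, those of chromosome 4 and the 5 with the highest mean flank score. Alternatives were each library's list alone, the union of both lists, regions at or above the median score, a reciprocal overlap of 50%, limits of 40 and 80 kb or 60 and 120 kb, and peaks under 36 bp left out. The planned description of genes and base composition was left out, since the available gene table is for another genome release.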

Additional observations from a re-analysis of the deposited data

Results flagged for a closer look

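Gaps of 50 kb to under 100 kb on the heterochromatic scaffolds and on U (sequence without an assigned arm) are outside the main arms and were not used above. These 8 gaps (0.533 Mb) held 22 peaks of replicate 1 and 18 of replicate 2, or 41.3 per Mb (25.9 to 62.5) and 33.8 per Mb (20.003 to 53.3). They are listed because peaks appeared in data that the comparisons do not use. Both densities lay above those of the mid-size gaps on the main arms, and replicate 2 did not exceed replicate 1 there. Of the 8 gaps, 4 lay on U. The lists do not show whether neighbouring regions on U are neighbours in the genome. Gap lengths and densities there may therefore not be comparable with those of the main arms.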

How the results depend on the processing

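Of 52 values recomputed under alternatives, 29 stayed within set limits, 23 moved, and no density ratio of mid-size to longer gaps turned below 1. The limits were the counting interval, the spread between libraries or, for numbers of gaps, a factor of 1.5. For the median flank score the spread was 0.448. That is wider than the difference between 2.23 for flanks and 2.03 for regions with no gap of 50 kb or more beside them. All flank scores and numbers of gaps stayed within these wide limits, so their staying says little about stability. The number of gaps was between 271 (limits of 60 and 120 kb) and 426 (40 and 80 kb). Their total length was 22.95 Mb with replicate 2 alone and 23.6 Mb with replicate 1 alone, 28.9 Mb with regions at or above the median score, 25.5 Mb with reciprocal overlap, 22.4 Mb with the union of both lists, 23.9 Mb with limits of 40 and 80 kb and 22.4 Mb with 60 and 120 kb. Replicate 1 peaks per Mb were 3.27 in the gaps of replicate 2 alone, 38.3 with regions at or above the median score, 21.6 with reciprocal overlap, 3.89 with limits of 60 and 120 kb and 3.39 without peaks under 36 bp. Replicate 2 peaks per Mb were 15.8 in the gaps of replicate 1 alone and 57.3, 36.7, 15.4 and 14.5 under the same alternatives, and 20.5 with limits of 40 and 80 kb. With the median score or reciprocal overlap, peaks of regions dropped from the list count as inside, which raises these densities by construction. The replicate 1 ratio of mid-size to longer gaps was 3.16 in the gaps of replicate 2 alone (2.04 to 4.997). Gaps without a peak of the other library made up 81.5% of those of replicate 2 alone and 45.4% of those of replicate 1 alone, and gaps without any peak made up 11.5% with the median score and 17.4% with reciprocal overlap. A gap list from 1 library holds none of its own peaks, and the union holds none at all, so those values and their flank scores were not recomputed. No paired analysis was possible because only 1 group has peak lists. The unknown depth limits every count of peaks.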
